A study of Mus musculus with 19 samples.

Results

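Expression of 10 genes was followed in 6 groups of mouse blood stem and progenitor cells, namely the transcription factor genes *Myc* and *Mycn* and 8 genes of the nucleolus, which were *Ncl*, *Npm1*, *Nolc1*, *Fbl*, *Nop56*, *Nop58*, *Dkc1* and *Polr1a*. The 10 were chosen by name, from their known roles and with earlier results of these data known. Each was matched by its symbol to 1 of the 54352 genes counted. On build GRCm38 of the genome the protein-coding genes lie at *Myc* (chr15:61985391-61990374, plus strand), *Mycn* (chr12:12936093-12941914, minus strand), *Ncl* (chr1:86344719-86359400, minus strand), *Npm1* (chr11:33152287-33163206, minus strand), *Nolc1* (chr19:46075863-46085530, plus strand), *Fbl* (chr7:28169710-28179269, plus strand), *Nop56* (chr2:130274430-130279313, plus strand), *Nop58* (chr1:59684971-59719044, plus strand), *Dkc1* (chrX:75095854-75109777, plus strand) and *Polr1a* (chr6:71909053-71984935, plus strand). All 10 passed the filter on low counts in every comparison. The study asked what loss of the long noncoding RNA *Spehd* does to gene expression in these cells, and sequenced RNA from LSK cells, a lineage-negative population that holds the stem cells, and from common myeloid progenitors (CMPs).

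All 6 groups came from the same kind of animal. Hematopoietic stem cells sorted from C57BL/6 donors as E-SLAM cells received a lentiviral vector in which doxycycline switches on an shRNA together with the fluorescent protein zsGreen, and in which the SFFV promoter drives the doxycycline-responsive activator rtTA. Sub-lethally irradiated C57BL/6-CD45.1;cKit-w41 mice were the recipients, and no competitor cells were given. After 10 weeks of reconstitution and 6 days of doxycycline, zsGreen+ cells were sorted. The shRNAs were sh10 and sh20, which target *Spehd*, and a control against Renilla luciferase, which the mouse genome does not carry. CMPs gave 4 libraries with Renilla shRNA, 3 with sh10 and 2 with sh20, and LSK cells gave 4, 3 and 3. Donors and recipients were 9 to 12 weeks old at tissue extraction or transplantation. Nothing states that the lettered libraries of a group came from separate animals, so the p-values below measure the spread between these libraries, which may be technical. No gene counted carries the name *Spehd*, so the depth of knockdown was not measured from these libraries.

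MYC proteins are basic helix-loop-helix factors that pair with MAX on the DNA letters CACGTG, the E-box, and raise the output of the genes that build ribosomes. Ribosomes are assembled in the nucleolus, where RNA polymerase I copies the ribosomal DNA into a long precursor that small nucleolar ribonucleoproteins (snoRNPs) modify and a large set of assembly factors cuts and folds. In bone marrow, *Myc* and *Mycn* are both active in stem cells and share part of their work there, and a rise in ribosome production accompanies the step from quiescent stem cell to dividing progenitor. These sentences are background and not results of the libraries.

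The guide strands of the 2 shRNAs against *Spehd* are shown first, because the reagents set the groups, with the seed (bases 2 to 8 from the 5′ end) in capitals. They were read from the study's table of hairpin oligonucleotides.
sh10: tACAAAGTcagcttttcctctc
sh20: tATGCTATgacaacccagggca
The guides share no seed. The reverse complement of the sh10 seed, ACTTTGT, occurred in 3 of the 40 protein-coding transcripts annotated for the 10 genes, 1 each of *Ncl*, *Fbl* and *Nop58*, beside 19.22% of all 58797 protein-coding transcripts. That of the sh20 seed, ATAGCAT, occurred in 1 of the 40, a transcript of *Nop58*, beside 8.37% of all. Neither *Myc* nor *Mycn* held a site for either seed. A seed match is a description of letters and was not tested as a cause of any value below.

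Promoter sequence is shown for the 5 nucleolar genes that passed the threshold for CMPs above LSK cells with sh10, since they moved together there, and for *Mycn*, which differed between the shRNAs. Each line is the 150 bases before RefSeq's start site on the gene's strand, on build GRCm38.p6. For *Mycn*, *Ncl*, *Nolc1*, *Nop56* and *Nop58* that start differs from the one in the gene coordinates above. For *Mycn* and *Nop58*, 78 and 35 bases of their windows lie inside the gene as located there. Capitals mark the motifs named after the sequences, on either strand. The table searched held 7 of the 10 genes, and *Myc*, *Npm1* and *Fbl* had no entry there.
Mycn, chr12:12941837-12941986, minus strand: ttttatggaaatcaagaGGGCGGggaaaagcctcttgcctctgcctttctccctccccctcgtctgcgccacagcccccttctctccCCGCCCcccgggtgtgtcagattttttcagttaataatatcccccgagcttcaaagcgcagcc
Ncl, chr1:86359456-86359605, minus strand: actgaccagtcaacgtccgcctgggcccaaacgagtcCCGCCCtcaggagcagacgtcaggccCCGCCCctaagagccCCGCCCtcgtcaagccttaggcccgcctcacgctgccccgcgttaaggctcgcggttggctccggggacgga
Nolc1, chr19:46075697-46075846, plus strand: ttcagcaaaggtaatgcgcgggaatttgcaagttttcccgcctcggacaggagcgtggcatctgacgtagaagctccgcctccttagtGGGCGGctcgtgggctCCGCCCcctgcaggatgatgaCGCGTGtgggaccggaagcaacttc
Nop56, chr2:130274262-130274411, plus strand: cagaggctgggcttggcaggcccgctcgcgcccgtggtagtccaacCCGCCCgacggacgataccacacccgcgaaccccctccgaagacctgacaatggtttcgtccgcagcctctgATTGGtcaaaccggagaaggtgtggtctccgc
Nop58, chr1:59684856-59685005, plus strand: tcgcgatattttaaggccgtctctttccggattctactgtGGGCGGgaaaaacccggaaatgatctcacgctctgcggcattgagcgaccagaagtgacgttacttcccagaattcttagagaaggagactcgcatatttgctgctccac
Dkc1, chrX:75095704-75095853, plus strand: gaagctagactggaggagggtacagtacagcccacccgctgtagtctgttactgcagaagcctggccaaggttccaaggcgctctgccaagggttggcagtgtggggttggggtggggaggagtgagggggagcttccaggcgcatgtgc
None of the 7 windows held CACGTG, which 4.3% of the 32851 promoter windows of that length in the table held. *Nolc1* held 1 CACGCG, a variant of the E-box, near its start site, as did 5.49% of all windows. GGGCGG, the core of the GC box bound by SP1, was the most frequent of the letters searched, with 3 copies in *Ncl*, 2 each in *Mycn* and *Nolc1*, and 1 each in *Nop56* and *Nop58*, beside 28.62% of all windows with any. CCAAT occurred once each in *Nop56* and *Polr1a*, beside 24.5% of all windows, and TATAAA in none, beside 7.57%. Both strands were searched. The absence of a motif says only that its letters are not in this window.

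Libraries held 3647318 to 5965155 counts on genes. In CMPs the totals followed the shRNA, with 3857980 to 4314959 counts in the Renilla libraries, 4918631 to 5228700 with sh10 and 5680969 to 5965155 with sh20. The authors removed duplicate alignments before counting, and in these files the 50 most abundant genes of a library took only 2.58% to 3.18% of its counts. The gates were checked against marker genes. *Ly6a* (Sca-1) ran from 39.7 to 90.7 CPM (counts scaled to a common library size, here by the library's total on genes without TMM) in LSK libraries and from 1.58 to 9.72 CPM in CMPs. With Renilla shRNA 7 of 8 LSK markers were lower in CMPs and 0 higher, beside 8.73% of all genes called lower and 11% higher, and *Mllt3* was not called, although with sh10 it was higher in CMPs. The 8 CMP markers split evenly, with 4 higher in CMPs (*Gata1*, *Klf1*, *Gfi1b* and *Car1*, of the erythroid and megakaryocytic side) and 4 lower (*Mpo*, *Elane*, *Ms4a3* and *Cebpe*, of the granulocytic side). *Gata1* had 250 to 307 CPM in CMPs against 59.2 to 138 CPM in LSK cells, and *Elane* had 28.4 to 57.2 CPM against 105 to 182 CPM. Among CMPs, 2 of 7 CMP markers tested were lower with sh20 than with Renilla shRNA and 0 higher. Of 3 markers shared by both gates (*Kit*, *Cd34* and *Ptprc*), 1 was lower and 0 higher, beside 4.27% of all genes called lower. With sh10 0 of either list were called. *Cd34* had 185 to 187 CPM in CMPs with sh20, 298.5 to 407 CPM with Renilla shRNA and 278 to 360 CPM with sh10. The 12 markers of mature blood cells that were listed summed to 30.2 to 32.9 CPM in CMPs with sh10, 82.8 to 120 CPM with Renilla shRNA and 167 to 195 CPM with sh20. The lymphoid genes *Cd3e*, *Cd3g* and *Ncr1* were each higher in all Renilla and sh20 libraries of CMPs than in all with sh10. In LSK cells the same sum overlapped between the shRNAs, at 41.0 to 156 CPM with Renilla shRNA, 70.8 to 202 CPM with sh10 and 71.9 to 103 CPM with sh20. A single library stood apart from its group. LSK sh10 replicate B differed from replicates A and C in its counts by a chi-square per gene of 46.3 and 55.3, where A and C differed by 5.59, and it had the highest TMM factor (1.1137) and the highest share of rows naming no gene (77.72%). The 2 CMP libraries with sh20 differed by 28.6. Genes with a count numbered 17174 to 18066 in CMPs with sh20, 18552 to 20173 with Renilla shRNA and 19042 to 20275 with sh10. In LSK cells they numbered 17587 to 17817, 19026 to 20032 and 20142 to 20678 in that order. Alignments that were not unique numbered 11096102 to 11758352 in CMPs with sh20, 6393183 to 7830288 with Renilla shRNA and 7315128 to 8252740 with sh10. The totals and the marker sum of CMPs moved with the shRNA, and fewer genes were detected with sh20 in both cell types. The part of these in the differences below was not tested beyond the fits named there.

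**Figure D1:**
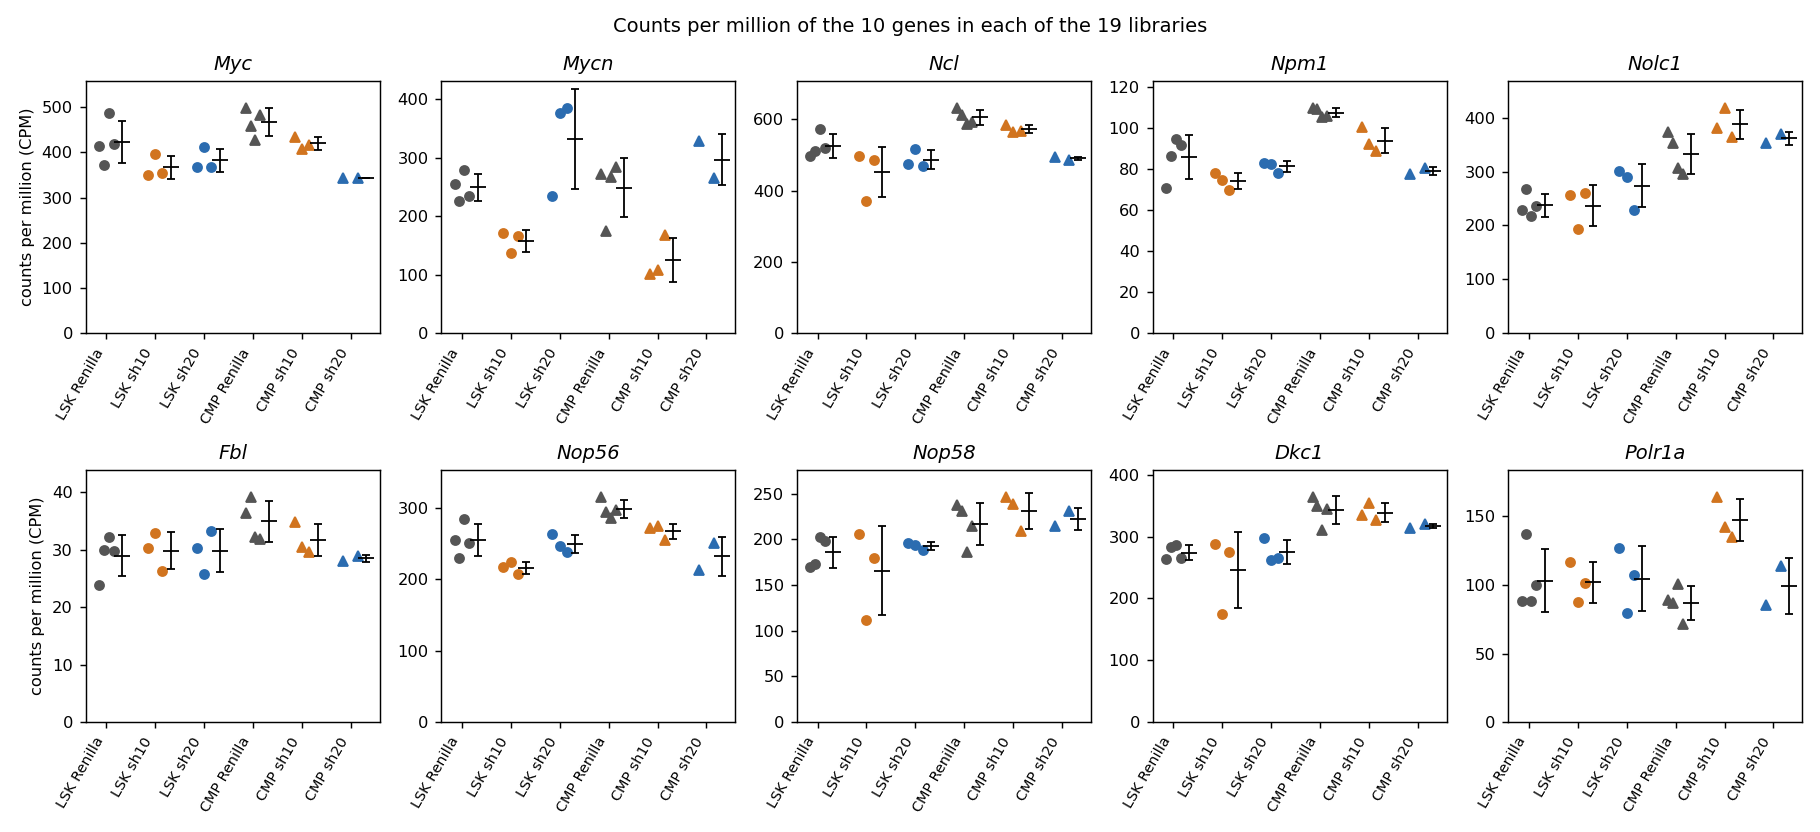
CPM of each of the 10 genes in each of the 19 libraries (points, circles for LSK cells and triangles for CMPs, gray for Renilla, orange for sh10 and blue for sh20), with the mean and SD of each group beside them in black. Mycn is lowest in the sh10 libraries of both cell types, and Nolc1 and Dkc1 sit higher in CMPs than in LSK cells.

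Levels between genes were compared as CPM per kilobase of coding sequence, averaged over the 19 libraries. Counts per gene also hold reads outside the coding sequence, so the order below depends on this choice of length. Annotated exons span 2717 bases for *Myc*, 10188 for *Ncl* and 10758 for *Nop58*, where the coding sequences span 1362, 2121 and 1332. The order per exonic length was not worked out. *Myc* stood first at 299.6, followed by *Ncl* at 248.9, *Dkc1* at 196, *Mycn* at 169, *Nop58* at 151, *Nop56* at 148, *Nolc1* at 142, *Npm1* at 101, *Fbl* at 31.5 and *Polr1a* at 20.6. The ranges over libraries of neighbors in this order overlapped except between *Npm1* (80.0 to 125) and *Fbl* (24.3 to 39.99), and *Fbl* and *Polr1a* (13.8 to 31.9) again overlapped. The places of *Fbl*, *Npm1* and *Nop56* are uncertain for a further reason. Of the 50-base stretches of their principal transcripts, 73.0%, 40.9% and 37.6% also occur in transcripts of another gene, and reads that map to several places were not counted. For each of the other 7 genes that share was at most 1.0%. *Nop56* overlaps *Idh3b* and *Dkc1* overlaps *Mpp1* at their 3′ ends on opposite strands, so reads from these ends could be assigned to either if the libraries did not keep the strand.

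*Myc*, the family member that most cell types use, had nearly the same count in every library. In LSK cells it had 1957, 1858, 1784 and 1943 counts with Renilla shRNA, 1988, 2073 and 1959 with sh10, and 1867, 1914 and 1997 with sh20. In CMPs it had 1891, 1878, 1841 and 1965 counts with Renilla shRNA, 2068, 2031 and 1991 with sh10, and 2032 and 1956 with sh20. The 19 counts spanned a 1.162-fold range while the totals of the libraries spanned 1.64-fold, and among 999 genes that averaged 1000 counts or more only 2.2% had a narrower range of counts than *Myc*, against a median range of 1.9-fold. *Myc* was also densely covered, with 1.43 counts per coding base on average, above 97.1% of 11730 genes. Because the counts hardly moved, *Myc* as CPM fell with the total of the library. Within groups, the deviations of its log2 CPM and of log2 total counts had a Pearson r of -0.937 over the 19 libraries, a description of values that share the total by construction. For the other 9 genes the same r lay between -0.688 (*Nop56*) and 0.505 (*Polr1a*).

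Scaled to CPM by TMM, the normalization of each fit below for which no other is named, *Myc* ran from 373 to 487 CPM in the LSK Renilla libraries, 350 to 397 CPM with sh10 and 367 to 412 CPM with sh20. In CMPs it ran from 427 to 498 CPM with Renilla shRNA, from 408 to 435 CPM with sh10, and was 344 and 343 CPM with sh20. The sh20 libraries of CMPs lay below all Renilla and sh10 libraries of CMPs and also below the LSK libraries with sh20. *Myc* fell with sh20 against Renilla in CMPs by 0.42 on the log2 scale (SE 0.067, adjusted p = 0.00993 by edgeR's quasi-likelihood test), with an adjusted p of 0.0143 to 0.0299 without any 1 of the Renilla libraries. Leaving out sh20 replicate B or C gave 0.027 and 0.011, but leaves a lone sh20 library that is assumed, here and wherever 1 of these is left out, to vary like the other groups, and without replicate C 3191 genes were called in all rather than 853. With an offset fitted to counts per exonic base the log2 difference was -0.13 (adjusted p = 0.161), and with log2 total counts as a covariate it was -0.04 (adjusted p = 0.907). Neither passed the threshold. Its mean deposited count, which is not scaled to the larger totals with sh20, was 1994 ± 53.7 (SD, n = 2) with sh20 against 1894 ± 52.0 (SD, n = 4) in the Renilla libraries, a log2 ratio of 0.074. Between CMPs and LSK cells, *Myc* differed by 0.14 (SE 0.077, adjusted p = 0.219) with Renilla shRNA, 0.19 (SE 0.088, adjusted p = 0.151) with sh10 and -0.15 (SE 0.099, adjusted p = 0.33) with sh20, none of which passed the threshold.

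**Figure D2:**
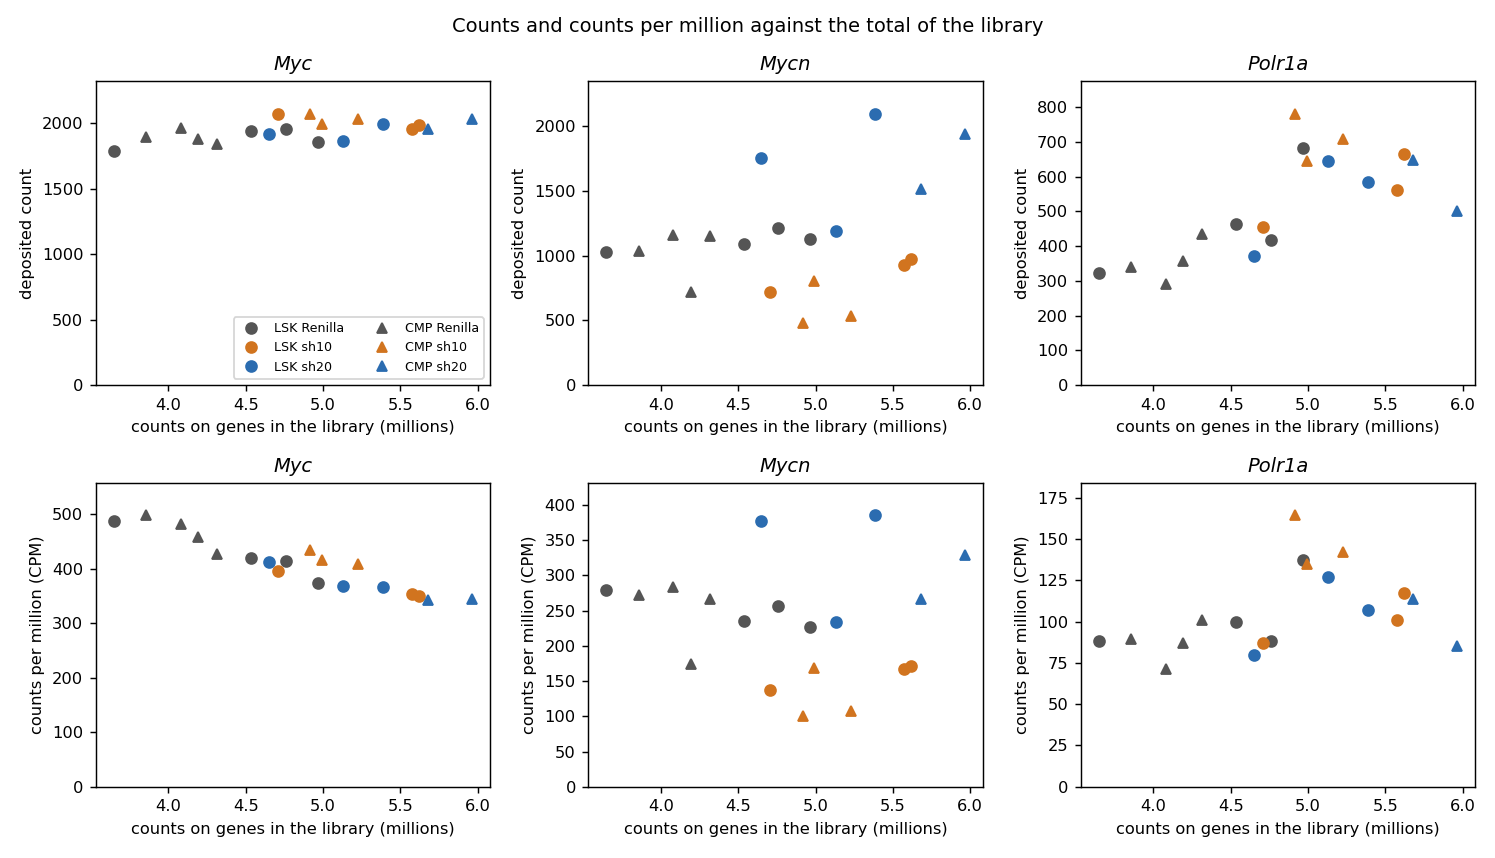
Deposited counts (top) and TMM-scaled CPM (bottom) of Myc, Mycn and Polr1a in each of the 19 libraries against the counts on genes in that library (axis in units of 1e6 counts), marked by cell type and shRNA. Counts of Myc stay between 1784 and 2073 as the total grows, so its CPM falls, whereas in CPM the sh10 libraries of Mycn lie below the Renilla and sh20 libraries of the same cell type, which overlap each other.

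*Mycn*, whose product binds the same E-box and which is best known in the embryo and in stem cells, varied more than *Myc*. In LSK cells it had 256, 227, 280 and 236 CPM with Renilla shRNA, 172, 137 and 167 CPM with sh10, and 234, 377 and 385 CPM with sh20. In CMPs it had 272, 175, 267 and 284 CPM with Renilla shRNA, 101, 108 and 168 CPM with sh10, and 328 and 266 CPM with sh20. In both cell types every sh10 library lay below every Renilla library and below every sh20 library, while the sh20 and Renilla libraries overlapped. CMPs and LSK cells with the same shRNA overlapped throughout, and their log2 difference was -0.001 (SE 0.186, adjusted p = 0.999) with Renilla shRNA. The counts of *Mycn* ran from 479 to 2097, a 4.38-fold range wider than that of 94.79% of the 999 abundant genes.

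The difference between the 2 *Spehd* shRNAs was the largest among the 10 genes. *Mycn* was 2.4-fold higher with sh20 than with sh10 in CMPs (log2 difference 1.26, SE 0.243, adjusted p = 0.0227) and 2.05-fold higher in LSK cells, where the log2 difference was 1.035 (SE 0.178) and the adjusted p of 0.0806 missed the threshold by edgeR's quasi-likelihood test. In CMPs *Ncl* was the only other member called, with a log2 difference of -0.20 (SE 0.049, adjusted p = 0.0422), so that 2 of 10 were called beside 6.41% of the 13824 genes tested. In LSK cells no member and 0% of 13828 genes were called, with 1268 genes at an unadjusted p under 0.05, while DESeq2 called 256 genes including *Mycn* (adjusted p = 0.000201). Without CMP sh10 replicate A or B the adjusted p of *Mycn* in CMPs was 0.0905 and 0.0901, and without LSK sh20 replicate A that in LSK cells was 0.0442. Whether the difference between shRNAs itself differs between the cell types was not tested.

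Against Renilla, sh10 and sh20 lay on opposite sides for *Mycn*. With sh10 the log2 difference was -0.996 in CMPs (SE 0.213, adjusted p = 0.0496) and -0.645 in LSK cells (SE 0.168, adjusted p = 0.995). With sh20 the log2 difference was 0.27 in CMPs (SE 0.229, adjusted p = 0.519) and 0.39 in LSK cells (SE 0.164, adjusted p = 0.556). Both shRNAs taken as 1 group gave -0.35 in CMPs (SE 0.342, adjusted p = 0.677) and -0.04 in LSK cells (SE 0.269, adjusted p = 0.998), averages of a lower and a higher set of libraries. The call with sh10 in CMPs was at the edge of the threshold. It was lost without any 1 of the 3 sh10 libraries (adjusted p 0.0676 to 0.209) or without CMP Renilla replicate A, C or D (0.0966 to 0.127), among 9 to 99 genes called in all rather than 272. It was also lost with the offset (log2 difference -0.91, adjusted p = 0.0703), among 195 genes called, and with log2 total counts as a covariate (-0.92, adjusted p = 0.425), where 1 gene was called in all. In CMPs the summed markers of mature cells had the same order of shRNAs as *Mycn*, and their part in it was not tested.

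*Ncl* encodes nucleolin, which binds the ribosomal RNA precursor, *Npm1* encodes nucleophosmin, a chaperone of ribosomal particles, and *Nolc1* encodes NOPP140, a scaffold for snoRNPs. *Ncl* had 496, 512, 573 and 519 CPM in LSK cells with Renilla shRNA, 498, 372 and 485 CPM with sh10, and 473, 517 and 469 CPM with sh20. In CMPs it had 631, 610, 586 and 593 CPM with Renilla shRNA, 584, 563 and 568 CPM with sh10, and 494 and 487 CPM with sh20. All CMP libraries of Renilla and of sh10 lay above the LSK libraries of the same shRNA, and those of sh20 did not. *Ncl* was 0.34 higher in CMPs on the log2 scale with sh10 (SE 0.088, adjusted p = 0.0133), with a log2 difference of 0.205 that missed the threshold with Renilla shRNA (SE 0.076, adjusted p = 0.0677), and differed by 0.01 with sh20 (SE 0.098, adjusted p = 0.96). LSK sh10 replicate B, the library that stood apart, held the 372 CPM and was also the lowest of its group for *Nolc1*, *Nop58* and *Dkc1*. Without it the log2 difference of *Ncl* with sh10 was 0.25 (adjusted p = 0.0172), and 4 members rather than 5 were called.

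*Nolc1* gave the largest rise from LSK cells to CMPs among the 10 genes in each of the Renilla and sh10 comparisons. It had 229, 268, 217 and 237 CPM in LSK cells with Renilla shRNA, 257, 193 and 261 CPM with sh10, and 302, 290.5 and 229 CPM with sh20. In CMPs it had 372, 353, 307 and 295 CPM with Renilla shRNA, 381, 418 and 364 CPM with sh10, and 353 and 370 CPM with sh20. No CMP library overlapped an LSK library of its shRNA. *Nolc1* rose 1.4-fold with Renilla shRNA (log2 difference 0.48, SE 0.112, adjusted p = 0.00601) and 1.64-fold with sh10 (0.71, SE 0.129, adjusted p = 0.00116), and both calls held without any 1 library. The log2 difference with sh20 was 0.40 (SE 0.142, adjusted p = 0.0674). With the offset fitted to counts per exonic base the Renilla difference was 0.32 (adjusted p = 0.081).

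*Npm1* had 71.0 to 94.9 CPM in LSK cells with Renilla shRNA and 106 to 110 CPM in CMPs, and rose by 0.32 on the log2 scale (SE 0.098, adjusted p = 0.028). With sh10 its CMP libraries, at 89.0 to 100.5 CPM, again lay above its LSK libraries, at 70.1 to 78.1 CPM (log2 difference 0.34, SE 0.113, adjusted p = 0.0503). With sh20 they overlapped, at 77.8 and 80.6 CPM in CMPs and 78.3 to 83.2 CPM in LSK cells. Its counts were 336 to 478. Part of its principal transcript also occurs in transcripts of other genes, as given above, and where on the gene these counts fall was not measured.

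*Fbl*, *Nop56* and *Nop58* encode proteins of the box C/D snoRNPs, in which fibrillarin is the enzyme that methylates ribosomal RNA, and *Dkc1* encodes dyskerin, the enzyme of the box H/ACA snoRNPs that turns uridine into pseudouridine. *Nop56* had 255, 230, 285 and 251 CPM in LSK cells with Renilla shRNA and 316, 295, 285 and 297 CPM in CMPs, where the lowest CMP library lay just above the highest LSK library (285.4 against 285.0 CPM). It rose by 0.23 on the log2 scale with Renilla shRNA (SE 0.074, adjusted p = 0.041) and by 0.31 with sh10 (SE 0.086, adjusted p = 0.0212), and the difference with sh20 was -0.10 (SE 0.096, adjusted p = 0.514). *Nop58* had 206, 112 and 179 CPM in LSK cells with sh10 and 247, 239 and 209 CPM in CMPs, a rise of 0.48 (SE 0.16, adjusted p = 0.049). *Dkc1* had 288, 175 and 275 CPM in LSK cells with sh10 and 335, 355 and 326 CPM in CMPs, a rise of 0.46 (SE 0.13, adjusted p = 0.0212). The 112 and 175 CPM are those of LSK sh10 replicate B, and without it the log2 difference was 0.29 for *Nop58* (adjusted p = 0.0914), which was then not called, and 0.30 for *Dkc1* (adjusted p = 0.0143). With Renilla shRNA *Dkc1* also separated, at 263 to 286 CPM in LSK cells and 311 to 364 CPM in CMPs, with a log2 difference of 0.32 and an adjusted p of 0.0536. *Fbl* stayed between 23.9 and 39.2 CPM in all 19 libraries, its groups overlapped between cell types, and it was called in no comparison.

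*Polr1a* encodes the largest subunit of RNA polymerase I. It had 88.1, 137, 88.1 and 99.8 CPM in LSK cells with Renilla shRNA, 117, 87.2 and 101 CPM with sh10, and 127, 79.8 and 107 CPM with sh20. In CMPs it had 89.3, 86.7, 101 and 71.2 CPM with Renilla shRNA, 164, 142 and 135 CPM with sh10, and 85.1 and 114 CPM with sh20. The 3 CMP libraries with sh10 lay above the other CMP libraries. *Polr1a* rose 1.69-fold with sh10 against Renilla in CMPs (log2 difference 0.75, SE 0.145, adjusted p = 0.0376), and with sh20 the log2 difference was 0.21 (SE 0.165, adjusted p = 0.483). With TMM the rise was called only with all 7 libraries in place, with adjusted p from 0.0519 to 0.146 when 1 was left out and 9 to 325 genes were called in all rather than 272. It was not called with the offset (log2 difference 0.70, adjusted p = 0.0506) or with log2 total counts as a covariate (0.45, adjusted p = 0.804). Its deposited counts averaged 711 ± 68.1 (SD, n = 3) in the sh10 libraries, against 355 ± 59.8 (SD, n = 4) in those of Renilla.

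Counted over the 10 genes, those called between cell types were all higher in CMPs. With Renilla shRNA 3 of 10 were called (*Npm1*, *Nolc1* and *Nop56*), beside 19.8% of the 15066 genes tested in either direction and 11% called higher. With sh10 5 of 10 were called (*Ncl*, *Nolc1*, *Nop56*, *Nop58* and *Dkc1*), beside 16.1% in either direction and 7.51% higher. With sh20 0 of 10 were called by edgeR and by DESeq2, with 1 (*Nolc1*) at an unadjusted p under 0.05, beside 14.6% in either direction and 5.94% higher. The median log2 difference of the 10 was 0.23, 0.34 and -0.05 with Renilla shRNA, sh10 and sh20, beside -0.021, 0.007 and -0.017 for all genes tested. Libraries of CMPs lay wholly above those of LSK cells for 5 of 10 genes with Renilla shRNA (16.4% of all genes), 8 with sh10 (19.4%) and 3 with sh20 (18.1%). The count with Renilla shRNA was 1 without CMP Renilla replicate A or B or without LSK Renilla replicate A or B, and 0 with the offset fitted to counts per exonic base. That with sh10 was 3 without CMP sh10 replicate A, 2 without CMP sh10 replicate B, 3 without LSK sh10 replicate C and 1 with the offset. The change of the cell-type difference was tested for both *Spehd* shRNAs as 1 group, as given further on, and not for each alone.

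**Figure D3:**
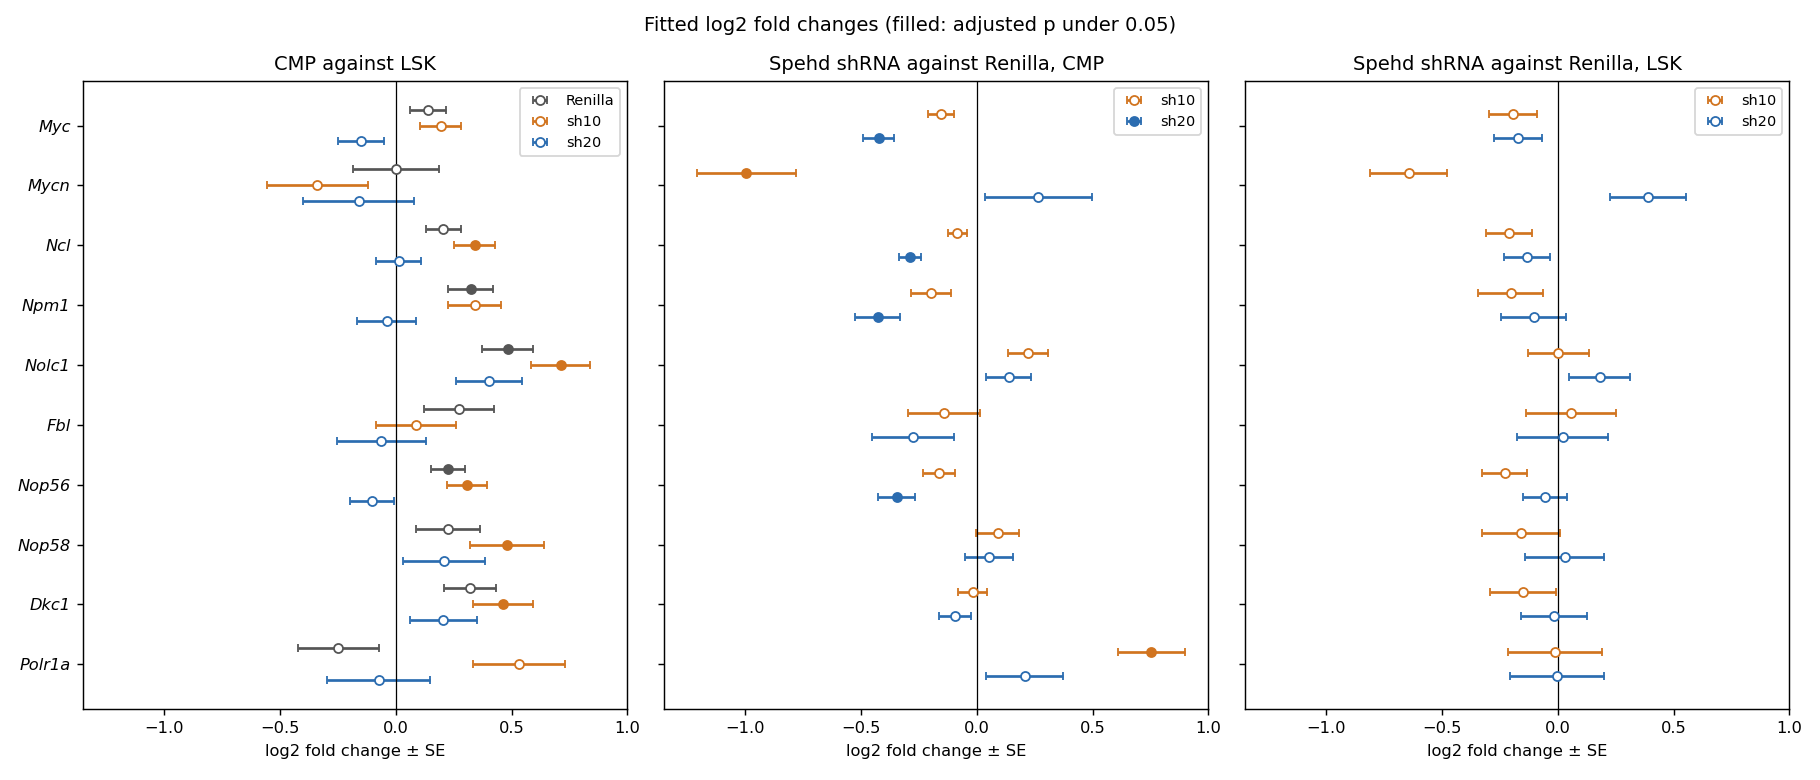
Fitted log2 fold change ± SE of each of the 10 genes for CMP against LSK per shRNA (left) and for each Spehd shRNA against Renilla in CMPs (middle) and LSK cells (right), filled where the adjusted p is under 0.05. Nucleolar genes lie mostly right of 0 between cell types with Renilla shRNA and sh10, and Mycn lies left of 0 with sh10 in both cell types.

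Other genes of the same pathways were read from lists fixed by their known roles, with earlier results of these data known. The small subunit processome, the assembly that cuts the precursor toward the small ribosomal subunit, had 17 of 33 genes higher in CMPs and 0 lower with Renilla shRNA, with a median log2 difference of 0.42, beside 11% of all genes called higher and a median of -0.021. Among them were *Bysl* (0.85, SE 0.105, adjusted p = 3.57e-05), *Pno1* (0.75, SE 0.099, adjusted p = 7.2e-05) and *Utp14a* (0.75, SE 0.197, adjusted p = 0.0128). With sh10 20 of 33 were higher and 0 lower (median 0.58), beside 7.51% of all genes and a median of 0.007, led by *Heatr1* (1.05, SE 0.294, adjusted p = 0.0208) and *Wdr75* (0.98, SE 0.252, adjusted p = 0.0131). With sh20 5 of 33 were higher and 0 lower (median 0.20), beside 5.94% and a median of -0.017, among them *Utp18* (0.79, SE 0.159, adjusted p = 0.0031). The counts were 11 with Renilla shRNA without CMP Renilla replicate B or LSK Renilla replicate A, 13 and 7 with sh10 without CMP sh10 replicate A or B, and 3 with sh20 without CMP sh20 replicate B or LSK sh20 replicate C, while the medians without any 1 library were 0.382 to 0.468, 0.541 to 0.633 and 0.203 to 0.284.

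Large subunit assembly factors gave similar counts, with 21 of 32 tested higher in CMPs and 0 lower with Renilla shRNA (median 0.38), 18 and 0 with sh10 (median 0.43) and 3 and 0 with sh20 (median 0.21), beside 11%, 7.51% and 5.94% of all genes called higher. *Mrto4* (0.70, SE 0.15, adjusted p = 0.00349), *Gnl3*, which encodes nucleostemin (0.69, SE 0.141, adjusted p = 0.00264), and *Rrs1* (0.68, SE 0.12, adjusted p = 0.000921) led the list with Renilla shRNA. The count with sh10 was 9 without CMP sh10 replicate A or B, and that with sh20 was 0 without CMP sh20 replicate B and 1 without LSK sh20 replicate C. With the offset fitted to counts per exonic base, 11 small subunit and 13 large subunit genes were higher with Renilla shRNA, with medians of 0.30 and 0.28, beside 8.83% of all genes.

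Of the RNA polymerase I machinery, 5 of 14 genes were higher in CMPs with Renilla shRNA, beside 11% of all genes, among them the polymerase subunit genes *Cd3eap* (0.65, SE 0.176, adjusted p = 0.0149), *Polr1d* (0.58, SE 0.155, adjusted p = 0.014) and *Polr1c* (0.51, SE 0.128, adjusted p = 0.00971). With sh10 2 of 14 were higher, beside 7.51% of all genes, *Polr1b* (0.66, SE 0.128, adjusted p = 0.00191) and *Ubtf* (0.36, SE 0.087, adjusted p = 0.00922), which encodes the factor that binds ribosomal DNA. With sh20 *Polr1b* was higher (0.70, SE 0.141, adjusted p = 0.00314) and *Taf1a* lower (-0.76, adjusted p = 0.0295), each 1 of 14 beside 5.94% of all genes higher and 8.64% lower. Of 9 further snoRNP proteins and assembly factors, 5 were higher with Renilla shRNA, led by *Shq1* (0.59, SE 0.136, adjusted p = 0.00558), which escorts dyskerin, and 0 with either *Spehd* shRNA, with 2 at an unadjusted p under 0.05 in each, beside 11%, 7.51% and 5.94% of all genes called higher. With Renilla shRNA the polymerase count was 3 and the snoRNP count 2 with the offset, and each was 1 with no filter. The polymerase count was 2 without CMP Renilla replicate A or B or LSK Renilla replicate A or D, the snoRNP count was 3 without CMP Renilla replicate A or B or LSK Renilla replicate A or B, and with sh10 the snoRNP count was 4 without LSK sh10 replicate B. With sh10 the polymerase count was 1 without CMP sh10 replicate B, and without LSK sh10 replicate C 1 gene was lower. With sh20 2 polymerase genes were higher without CMP sh20 replicate B or LSK sh20 replicate A or C, *Taf1a* was not called without CMP sh20 replicate B or C or LSK sh20 replicate C, and 1 snoRNP gene was higher without CMP sh20 replicate B or LSK sh20 replicate A or C.

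Of 13 MYC targets outside the nucleolus, 5 were higher in CMPs with Renilla shRNA, 4 with sh10 and 1 with sh20, beside 11%, 7.51% and 5.94% of all genes called higher, and 0 were lower. The count with sh20 is near that share. The count with Renilla shRNA was 3 without CMP Renilla replicate A or B or LSK Renilla replicate A, B or D, and that with sh10 was 2 without CMP sh10 replicate A. *Tfrc*, the transferrin receptor gene, was higher with each shRNA, by 1.96 (SE 0.284, adjusted p = 0.000164), 2.46 (SE 0.33, adjusted p = 9.66e-05) and 2.19 (SE 0.346, adjusted p = 0.000466). *Odc1*, the ornithine decarboxylase gene, was higher with Renilla shRNA (0.69, SE 0.105, adjusted p = 0.000257) and with sh10 (0.51, SE 0.12, adjusted p = 0.00795). Of 11 MYC network partners, *Mlx* was higher (0.42, SE 0.144, adjusted p = 0.0499) and *Mlxip* lower (-0.78, adjusted p = 0.000353) with Renilla shRNA, and *Mxd4* (-0.72, adjusted p = 0.0404) and *Mxd3* (-0.67, adjusted p = 0.0281), which encode MAX partners that repress, were lower with sh10. Those are 1 of 11 in each direction with Renilla shRNA, near the 11% of all genes called higher and 8.73% called lower, and 2 of 11 lower with sh10, beside 8.58%. No partner was called higher with Renilla shRNA under DESeq2 size factors, upper quartile scaling, no filter, the covariate or the offset, or without CMP Renilla replicate A, B or D or LSK Renilla replicate A, B or C. With sh10 0 were lower with only the sh10 libraries, or without CMP sh10 replicate A or B or LSK sh10 replicate B, and 1 was lower with no filter or without LSK sh10 replicate C.

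**Figure D4:**
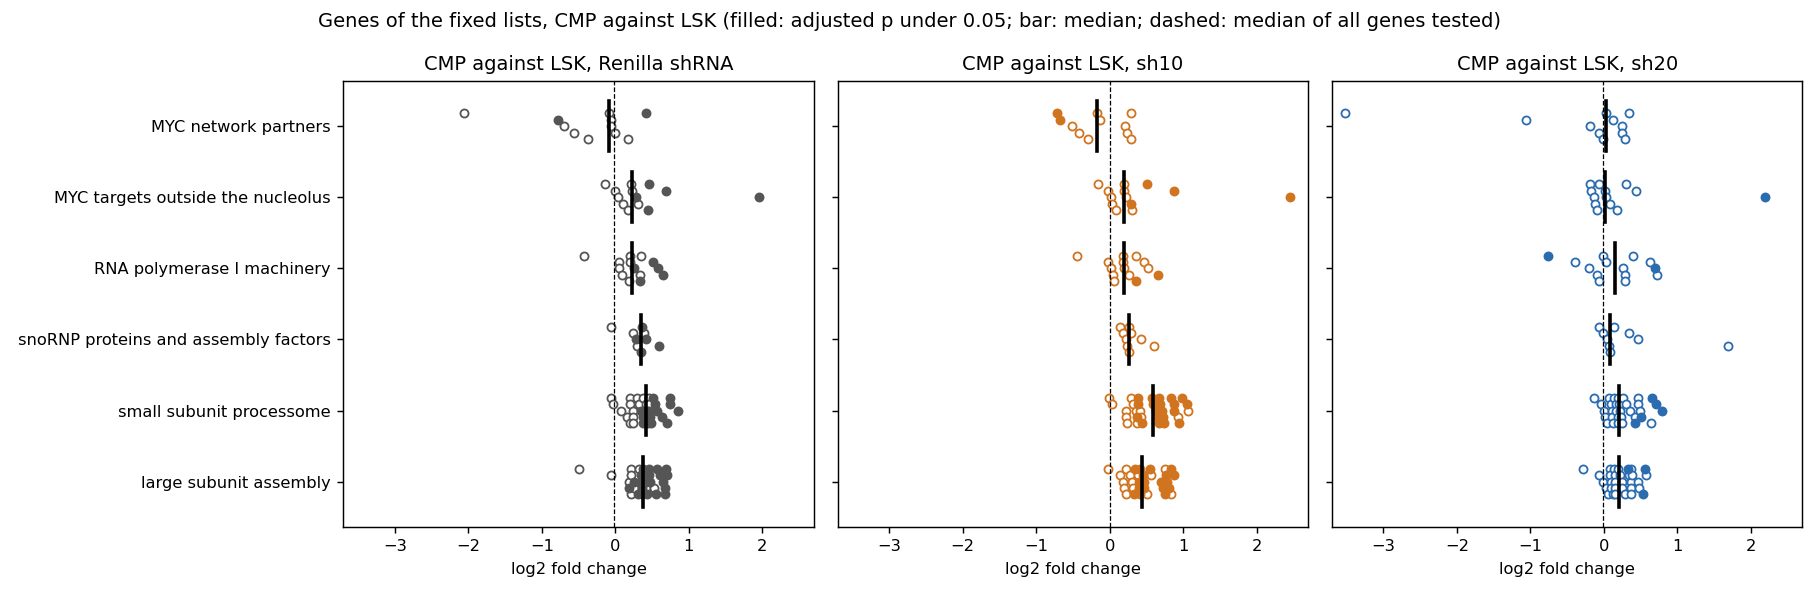
Log2 fold change of each gene of 6 lists for CMP against LSK with Renilla shRNA, sh10 and sh20, filled where the adjusted p is under 0.05, with the median of the list as a bar and that of all genes tested as a dashed line. The small and large subunit lists lie right of the dashed line with Renilla shRNA (medians 0.42 and 0.38) and sh10 (0.58 and 0.43), and nearer to it with sh20 (0.20 and 0.21).

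Loss of *Spehd* was the question of the second set of comparisons. With both shRNAs as 1 group, 0 of 10 genes were called against Renilla in CMPs by edgeR, with 6 at an unadjusted p under 0.05, beside 0.116% of 12912 genes. DESeq2 called *Npm1* (-0.28, adjusted p = 0.0475) and *Polr1a* (0.57, adjusted p = 0.0337) among 882 genes in all, and with the shRNAs as separate groups in edgeR 4 were called (*Myc*, *Ncl*, *Npm1* and *Nop56*, all lower) among 674. In LSK cells 0 of 10 were called by either tool, with 1 (*Myc*) at an unadjusted p under 0.05, beside 0% of 13441 genes. The effect in CMPs minus that in LSK cells was called for 0 of 10 by either tool, with 0 at an unadjusted p under 0.05, beside 0.0531% of 15066 genes.

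Per shRNA in CMPs, sh10 gave 2 of 10 calls, *Mycn* lower and *Polr1a* higher, beside 1.97% of 13824 genes. With sh20 4 of 10 were called, all lower, beside 6.17%. These were *Myc*, *Ncl* (-0.29, SE 0.047, adjusted p = 0.0107), *Npm1* (-0.43, SE 0.098, adjusted p = 0.0362) and *Nop56* (-0.35, SE 0.079, adjusted p = 0.0358). CMP libraries with sh20 lay wholly below those with Renilla shRNA for 5 of 10 genes (17.1% of all genes), and below those with sh10 for 7 of 10 (24%). Those with sh10 lay wholly below Renilla for 4 of 10 (12.2%). In LSK cells edgeR called 0 of 10 with either shRNA, with 2 at an unadjusted p under 0.05 with sh10 and 1 with sh20, beside 0% of 13828 genes for each. DESeq2 also called 0 of 10, among 3 genes called in all with sh10 and 195 with sh20. The LSK libraries with sh10 lay wholly below Renilla for *Mycn* and *Nop56*, 2 of 10 (3.46%), and those with sh20 wholly above sh10 for *Mycn*, *Npm1* and *Nop56*, 3 of 10 (6.64%).

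The calls of the 4 genes lower with sh20 in CMPs were fewer in fits with an offset or a covariate, as were those over all genes. Their deposited counts were not lower than with Renilla shRNA. Mean counts were 2844 ± 99.7 (SD, n = 2) against 2461 ± 64.6 (SD, n = 4) for *Ncl*, 459 ± 0.0 against 438 ± 17.3 for *Npm1*, and 1345 ± 122 against 1213 ± 12.8 for *Nop56*, while the totals of these libraries also differed, as given above. With the offset fitted to counts per exonic base 2 of the 4 calls were left, *Ncl* (-0.215) and *Npm1* (-0.42), and 446 genes were called in all rather than 853. With log2 total counts as a covariate 0 were left, with all 4 log2 differences below 0 (-0.27 to -0.04), and 20 genes were called in all. The totals differed between the shRNAs, so the covariate and the shRNA cannot be told apart. The count was 2 without CMP sh20 replicate B or without CMP Renilla replicate A, B or D.

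**Figure D5:**
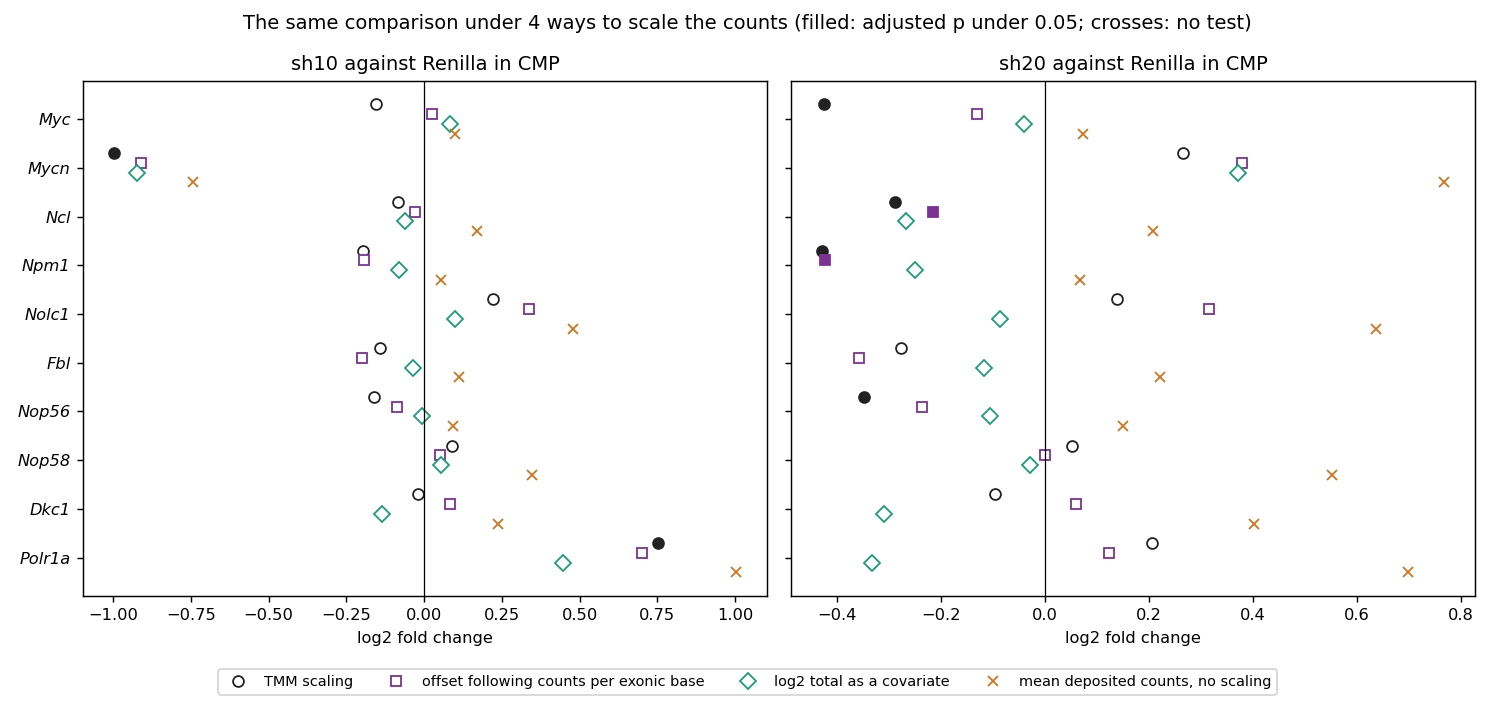
Log2 fold change of the 10 genes for sh10 (left) and sh20 (right) against Renilla in CMPs with TMM scaling, with an offset following counts per exonic base, with log2 total counts as a covariate, and as the ratio of mean deposited counts, filled where the adjusted p is under 0.05. For Myc with sh20 the value moves from -0.42 to -0.13, -0.04 and 0.074, whereas Mycn with sh10 stays between -0.996 and -0.74.

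The pathway lists were also read against Renilla in CMPs. With sh10 *Heatr1* (0.88, SE 0.098, adjusted p = 0.00847) and *Nol6* of the small subunit processome and *Nol9* of the large subunit list (0.63, adjusted p = 0.0166) were higher, 2 of 33 and 1 of 32, and 0 were lower, beside 0.977% of all genes called higher. The small subunit count was 1 without any 1 library other than CMP Renilla replicate B, and the large subunit count was 0 without any 1 of the 3 sh10 libraries or without CMP Renilla replicate A. Both were 0 with the covariate.

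With sh20 3 of 32 large subunit factors were lower, namely *Gnl3* (-0.34, adjusted p = 0.0302), *Ebna1bp2* (-0.33, adjusted p = 0.0338) and *Rrp1* (-0.29, adjusted p = 0.0118), and *Rrn3*, which recruits RNA polymerase I, was higher (0.68, adjusted p = 0.0383), as was *Twistnb* (0.43, adjusted p = 0.0425). Of the 9 snoRNP proteins and factors, *Nhp2*, a core protein of the H/ACA particles, was lower (-0.42, adjusted p = 0.0309). Of the 13 MYC targets 4 were lower with sh20, among them the lactate dehydrogenase gene *Ldha* (-0.48, adjusted p = 0.0093) and the spermidine synthase gene *Srm* (-0.44, adjusted p = 0.00971), and *Tfrc* was higher (0.86, adjusted p = 0.0093). Over all genes 4.27% were called lower and 1.9% higher. The large subunit count was 1 without CMP sh20 replicate B or CMP Renilla replicate A or B. The polymerase count was 0 without CMP sh20 replicate B or CMP Renilla replicate B or D and 1 without CMP Renilla replicate A or C. *Nhp2*'s list had 0 lower without CMP sh20 replicate B or CMP Renilla replicate A, B or D, and 2 without CMP sh20 replicate C. With the offset 1 large subunit gene and 1 MYC target were lower and 1 polymerase gene and 1 MYC target higher, and with the covariate none of these lists had a call.

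With sh20 against sh10 in CMPs *Heatr1* (-0.76, adjusted p = 0.0134) was lower, 1 of 33 small subunit genes, as was *Nol9* (-0.435, adjusted p = 0.0451), 1 of 32 large subunit genes. Of 11 network partners *Mxd3* was higher (0.87, adjusted p = 0.0456). The MYC family gene *Mycl*, of the same list and below the mean of 50 counts set for naming, was called lower (adjusted p = 0.0456). Over all genes 3.64% were called lower and 2.77% higher, and the counts of the subunit lists are near that share. The small subunit count was 0 without CMP sh10 replicate B, 2 without CMP sh20 replicate B and 5 without CMP sh20 replicate C. The large subunit count was 0 without any 1 of the 3 sh10 libraries or CMP sh20 replicate B and 6 without CMP sh20 replicate C. The network partners had 0 calls without any 1 library other than CMP sh20 replicate C, without which 3 were higher and 3 lower. In LSK cells 0 genes of any of these lists were called with either shRNA by edgeR, with 1 and 7 at an unadjusted p under 0.05 with sh10 and sh20.

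Over the 19 libraries, the genes whose log2 CPM was most like that of *Myc* among 10474 genes compared were *Slc25a5* (Pearson r = 0.979), *Srsf2* (0.975), *Arhgdia* (0.974), *Prdx1* (0.974) and *Hsp90ab1* (0.973). Those most like the mean of the 8 nucleolar genes were *Hspa9* (0.95), *Nsun2* (0.948), *Immt* (0.917), *Metap2* (0.917) and *Rsl1d1* (0.917). Among the members, *Nop58* and *Dkc1* were alike (r = 0.926, and 0.902 within groups), and *Myc* and *Mycn* were not (r = -0.021). LSK sh10 replicate B, the library that stood apart, held the lowest value of all libraries for both *Nop58* (112 CPM) and *Dkc1* (175 CPM). Their r without that library was not computed. All of these r values are descriptions across libraries that share their depth and their groups.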

How the data were processed

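RNA from 19 samples of sorted LSK cells and CMPs was sequenced after SMART-Seq v4 amplification. Per the labels and the study's methods, the authors aligned reads to mm10 with STAR, removed duplicates with Picard and deposited raw HTSeq counts per gene. Removing duplicates limits how many reads of a short, abundant transcript can be counted. Whether the kit kept the strand is not given in the sources used here. Rows that name no gene held 72.04% to 77.72% of the deposited counts and were left out. A deposited table of normalized values of the same libraries was not used.

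Counts were tested with edgeR 4.0.16 (TMM, filterByExpr at its minimum of 10 counts per library and 15 in total, quasi-likelihood fit, Benjamini-Hochberg adjustment over all genes tested, threshold 0.05) in R 4.3.3. CMP and LSK were compared per shRNA in a fit of all 19 libraries by the 6 groups, and shRNAs within each cell type. CPM values of the 10 genes were TMM-scaled, and those of marker genes were scaled by the library's total count on genes alone. The tests were tried on simulated data. Alternatives were DESeq2 1.42.0, other scalings, no filter, replicate blocks, log2 total counts as a covariate and leaving out each library, and, chosen after seeing the data, an offset following counts per exonic base (lowess span 0.3). The covariate was always fitted with all 19 libraries, also where the main fit held 1 cell type. Annotation came from GENCODE vM21 on GRCm38, where the authors used vM11.

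The members and lists were chosen with earlier results of these data known. All 10 members were named, and of each list and comparison up to 3 called genes per direction with the largest log2 fold change and a mean of at least 50 counts.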

Additional observations from a re-analysis of the deposited data

Results flagged for a closer look

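Among 20 groups of 4 libraries tested (10 genes in the Renilla libraries of both cell types), 1 held a library far from the other 3. *Mycn* in CMP Renilla replicate B was 175.0 CPM, where the other 3 libraries had 267 to 284 CPM, and the gap was 0.845 of the range, above the critical value of Dixon's test at 95%. Chance flags about 1 in 20 such groups. Without that library the log2 difference of *Mycn* in CMPs was -1.14 (edgeR adjusted p = 0.0248) with sh10 and 0.125 (adjusted p = 0.759) with sh20.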

How the results depend on the processing

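Of 1960 values of the 10 genes recomputed under the alternatives, none that was called changed sign, and 110 that were called neither way did. The count of members called moved as follows. For CMP against LSK with Renilla shRNA, 3 became 1 with no filter, 5 with only the libraries of that shRNA, 0 with the offset and 1 to 4 when 1 library was left out. With sh10, 5 became 2 with upper quartile scaling, 3 with no filter, 1 with only the libraries of that shRNA, 1 with the offset and 2 to 5 when 1 library was left out. For both *Spehd* shRNAs against Renilla in CMPs, 0 became 2 with DESeq2, 1 with all 19 libraries in 1 fit, 4 with the shRNAs as separate groups, and 0 to 1 when 1 library was left out (without CMP sh20 replicate B). For sh10 against Renilla in CMPs, 2 became 1 with DESeq2 size factors, 1 with all 19 libraries in 1 fit, 0 with the covariate, 0 with the offset and 0 to 1 when 1 library was left out. For sh20, 4 became 2 with all 19 libraries in 1 fit, 0 with the covariate, 2 with the offset and 2 to 4 when 1 library was left out. For sh20 against sh10, 2 in CMPs became 4 with DESeq2, 1 with all 19 libraries in 1 fit, 1 with the covariate and 0 to 3 when 1 library was left out, and 0 in LSK cells became 1 with no filter, 1 with DESeq2 and 0 to 1 when 1 library was left out. The causes were not tested.

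The letters are not stated to mark a shared animal. Libraries of the same letter and shRNA correlated across cell types by 0.0031 to 0.2589 in their deviations (9 pairs, median 0.0435). Those of the same shRNA and other letters did so by -0.2143 to 0.131 (22 pairs, median -0.0319). Libraries of the same letter and cell type correlated by -0.1746 to 0.1555 (16 pairs). The ranges overlap, and whether CMP and LSK libraries of a letter came from the same animal was not tested. The main fits did not pair libraries. With a replicate block by letter the count was 1 for CMP against LSK with Renilla shRNA, and 0 in CMPs for sh10 against Renilla, for sh20 against Renilla and for sh20 against sh10, where 5, 0 and 28 genes were called in all. With a replicate block by shRNA and letter it was 1 with Renilla shRNA and 3 with sh10. Of the MYC network partners, *Mlx* lost its call with the block by letter, and *Mxd3* and *Mxd4* lost theirs with either block.

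Duplicates were removed before counting, and how far this held down the counts of densely covered genes such as *Myc* was not tested. In CMPs the totals of the 3 shRNAs did not overlap, so depth and shRNA cannot be told apart there. Groups of 2 to 4 libraries leave little room to judge spread.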

Other observations

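Over the 19 libraries the genes whose log2 CPM was most like that of *Mycn* were *Ptgs1* (Pearson r = 0.92), *Gm43621* (0.893), *Sdc2* (0.87), *Rab11a* (0.869) and *Tbxas1* (0.861), among 10474 genes compared. *Ptgs1* encodes cyclooxygenase 1 and *Tbxas1* thromboxane synthase, enzymes of thromboxane production. These genes were looked up after the values of *Mycn* were seen, the libraries share their groups and their depth, and no test was made.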
